A study of Mus musculus with 7 samples.

Results

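The mouse genome names many transcripts after the gene on the other strand, with the letters os (opposite strand) added to the symbol of that partner gene. The deposited tables were searched for symbols ending in os, or in os and a digit, where the symbol before os is itself listed. The search took 139 of the 32531 symbols, with 132 distinct partners, because 7 partners have 2 such genes each. The choice used symbols alone and no measured value. Trp73os was not analysed here.

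Adult mice of 1 transgenic line, Dcdc2a-TRAP ES2575 (Dcdc2a-EGFP/Rpl10a), gave the tissue, which was dissected from around the ventricles of the brain. In translating ribosome affinity purification (TRAP), a ribosomal protein fused to EGFP is expressed in chosen cells, here under Dcdc2a, and the tagged ribosomes are pulled down with anti-EGFP antibodies. The labels give 3 libraries of immunopurified, ribosome-bound RNA (IP, numbers 1, 3 and 4) and 4 libraries of total RNA (Input, numbers 1 to 4). All 7 come from the same transgenic line, and the labels name ependymal cells as the cells profiled. The labels do not say whether the libraries come from separate animals, so p-values measure only the spread between these libraries, which may be technical.

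Transcripts that start head to head with a coding gene often arise from a shared promoter that fires in both directions, while others lie inside the partner or meet it end to end. Some such RNAs act on their neighbour or host small RNAs, some are translated, and for most no role is known. Ribosome-bound RNA is enriched for translated messages, and nuclear noncoding RNA is usually depleted from it.

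Libraries held 37203427 (Input 3) to 52175180 (IP 1) gene counts. Levels are given as CPM (counts per 1e+06 gene counts, with library sizes scaled as described below). Before that scaling, 3 counts correspond to 0.0575 to 0.0806 CPM. Summed levels of 10 ependymal marker genes ran from 206 to 2494 CPM in IP, lowest in IP 1, and from 27.2 to 43.2 CPM in Input. The 6 mural and fibroblast markers ran from 78.4 to 1144 CPM in IP and from 29.6 to 70.7 CPM in Input, and the 6 neuronal markers from 6608 to 7938 CPM in IP and from 9307 to 11811 CPM in Input. The 6 astrocyte markers stood at 316, 1075 and 972 CPM in IP 1, IP 3 and IP 4 and at 374 to 424 CPM in Input, and the 6 oligodendrocyte markers at 2542 to 4171 CPM in IP and 4128 to 5649 CPM in Input. By edgeR, 8 ependymal, 4 mural and fibroblast, 1 astrocyte and 1 endothelial marker were called higher and 2 oligodendrocyte markers lower. Of the neuronal, striatal neuron, choroid plexus and microglia markers 0 were called. No marker of these lists was at 0 in any library. The part of other cell types in the results below was not tested, and in such bulk samples fewer cells of a type and less RNA per cell cannot be told apart. Reads that fell on more than 1 gene, which were counted to none, numbered 2.97 to 3.38 per 100 gene counts in IP and 17.2 to 27.0 in Input. Overlapping genes lose such reads, and the part of this difference in the results was not tested. Values are also given for genes whose exons do not overlap those of the partner. Some of these overlap exons of other genes (20.2% of the exon bases of Brip1os) or lie inside the body of the partner (such as Dnm3os). They may therefore still lose or share reads.

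In the annotation (GENCODE M21, assembly GRCm38, the assembly of mm10), 133 of the 139 were matched to 1 gene, and each of the 133 lies on the strand opposite to its partner. Their biotype was antisense for 104, processed transcript for 8, long intergenic noncoding RNA for 7, and bidirectional promoter noncoding RNA for 2 (Cep83os and Dio3os). A further 10 are annotated as protein coding, so the name does not mark a noncoding gene there. Ccpg1os, Cebpzos, Chd3os, Fancd2os, Slc7a6os and Wdr83os are among them. The os gene lies within the body of its partner in 45 pairs, overlaps the start of the partner with its own start in 42, starts divergently without overlap in 20, overlaps end to end in 16, converges without overlap in 7 and encloses the partner in 3. Exons of the pair overlap in 73 and do not in 60, and the starts lie within 1000 bases of each other in 35. Annotated exon length ran from 322 to 11884 bases, with a median of 1745.

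The windows around the start sites (250 bases before to 50 after, RefSeq, GRCm38.p6) are shown for the genes on which the results turn, which are the 3 os genes that passed the test, Mccc1 for contrast with Mccc1os, and 2 os genes that start back to back with a coding gene and were high in IP 3 and IP 4. The windows are Mccc1os at chr3:35999663-35999962 (plus strand), Mccc1 at chr3:36000629-36000928 (minus), Uckl1os at chr2:181578230-181578529 (plus), Med9os at chr11:59948098-59948397 (minus), Cep83os at chr10:94688564-94688863 (minus) and Ccpg1os at chr9:72985327-72985626 (minus). Capitals mark the letters CCAAT on either strand in the first 2. In the others they mark a match on either strand to the X-box type (GTTNCC, then any 3 bases, then GNNAC). This is a fixed form of the pattern bound by the RFX factors of ciliated cells, and looser forms were not searched.
Mccc1os: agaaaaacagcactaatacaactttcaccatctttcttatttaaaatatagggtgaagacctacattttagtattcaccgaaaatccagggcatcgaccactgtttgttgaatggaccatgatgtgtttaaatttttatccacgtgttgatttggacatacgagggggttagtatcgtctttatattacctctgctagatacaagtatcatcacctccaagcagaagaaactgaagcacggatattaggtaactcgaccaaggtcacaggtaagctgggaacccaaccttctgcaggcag
Mccc1: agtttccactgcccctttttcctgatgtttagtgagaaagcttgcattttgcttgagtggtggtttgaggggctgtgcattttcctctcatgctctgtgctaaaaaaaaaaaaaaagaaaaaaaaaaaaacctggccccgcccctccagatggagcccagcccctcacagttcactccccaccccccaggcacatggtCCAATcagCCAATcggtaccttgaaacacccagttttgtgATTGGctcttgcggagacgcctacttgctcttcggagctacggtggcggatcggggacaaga
Uckl1os: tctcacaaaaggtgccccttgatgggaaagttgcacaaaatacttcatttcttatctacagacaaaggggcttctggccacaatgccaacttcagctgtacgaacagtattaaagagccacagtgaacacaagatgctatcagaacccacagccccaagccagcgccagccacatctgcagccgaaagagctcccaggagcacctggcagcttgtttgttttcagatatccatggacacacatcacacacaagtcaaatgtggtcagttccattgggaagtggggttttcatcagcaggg
Med9os: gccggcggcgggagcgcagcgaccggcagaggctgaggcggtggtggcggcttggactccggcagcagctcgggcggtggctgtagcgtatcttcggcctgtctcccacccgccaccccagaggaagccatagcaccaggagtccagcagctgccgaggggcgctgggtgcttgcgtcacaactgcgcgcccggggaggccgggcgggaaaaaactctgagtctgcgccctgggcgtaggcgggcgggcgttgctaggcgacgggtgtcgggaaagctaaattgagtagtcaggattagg
Cep83os: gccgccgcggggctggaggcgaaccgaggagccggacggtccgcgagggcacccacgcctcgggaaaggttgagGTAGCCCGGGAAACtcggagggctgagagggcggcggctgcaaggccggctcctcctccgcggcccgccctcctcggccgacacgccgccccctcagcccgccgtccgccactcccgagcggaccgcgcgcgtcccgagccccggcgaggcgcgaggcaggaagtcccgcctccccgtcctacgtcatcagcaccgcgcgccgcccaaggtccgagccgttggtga
Ccpg1os: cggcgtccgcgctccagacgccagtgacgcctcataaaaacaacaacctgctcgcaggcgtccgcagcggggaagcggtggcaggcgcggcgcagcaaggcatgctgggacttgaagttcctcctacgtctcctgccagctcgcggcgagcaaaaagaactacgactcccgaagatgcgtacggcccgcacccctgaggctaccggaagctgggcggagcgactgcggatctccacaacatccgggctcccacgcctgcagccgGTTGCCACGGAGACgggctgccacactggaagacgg

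The Mccc1 window holds 3 CCAAT matches, starting at bases -52, -44 and -12 from the start site, and the Mccc1os window, whose start lies 765 bases away inside Mccc1, holds none. The Cep83os window has an X-box type match starting at base -176 and the Ccpg1os window one at base 15, and in each case the window of the partner, whose start is 177 bases (Cep83) or 128 bases (Ccpg1) away, contains the same match. The Uckl1os window shown and the Med9os window hold no match to this fixed 14-base form, which does not exclude a looser form of the pattern. Among 118 windows of 109 os genes, 4.24% hold the X-box type, against 6.08% of 148 partner windows and 2.22% of all 32851 windows. For CCAAT the shares were 36.4%, 39.2% and 37.4%, and for the GC box GGGCGG 30.5%, 52.0% and 35.7%. Forkhead-type letters (TGTTTAC) were in 0.847% of os windows, 1.35% of partner windows and 3.65% of all windows, and TGTTTGC in 5.08%, 6.76% and 5.07%. The median CpG number per 100 bases was 2.67 in os windows, 6.17 in partner windows and 2.33 in all. These matches describe letters only.

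The os genes were weakly expressed. After the filter on low counts 73 of the 139 were tested, with a median level of 1.65 CPM, and 24 of these had a mean below 1 CPM. Of the 66 that were not tested, 15 had 0 counts in every library, and the others had at most 180 counts over the 7 libraries (Frs3os). Summed over all 139, levels were 307, 526 and 423 CPM in IP 1, IP 3 and IP 4 and 507, 454, 564 and 536 CPM in Inputs 1 to 4. IP 1 had the lowest sum and IP 3 lay within the Input range. Without the coding os genes the sums were 229, 300 and 275 CPM in the IP libraries and 352, 308, 413 and 366 CPM in the Inputs, with every IP below every Input. That separation rests on Cep83os, which alone held 28.6, 44.6 and 47.4 CPM in IP and 101 to 114 CPM in Input. With Cep83os also left out, the groups overlap. Compared per kilobase of annotated exon, the os gene stood at a median of 10.1% of its partner in Input and 10.3% in IP over 69 pairs. It stood above the partner in 15 pairs in Input and in 12 in IP. These lengths join the exons of all annotated transcripts of a gene. The annotation used for counting is not known, so values per kilobase depend on that choice.

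Few os genes passed the test. In IP against Input, 1 was higher (Uckl1os) and 2 were lower (Cep83os and Mccc1os), with edgeR's quasi-likelihood test, Benjamini-Hochberg adjustment over all 17375 tested genes and a threshold of 0.05. Over all tested genes, 3.64% were called higher and 2.16% lower, so the share of os genes was near or below the background in both directions. At an unadjusted p under 0.05, 5 of the 73 os genes were higher and 9 lower, beside 2319 and 1633 of all 17375 tested genes. The 73 os genes had a median log2 fold of -0.49 against 0.06 for all tested genes, with 28 positive and 45 negative values. The 248 tested genes with the antisense biotype had a median of -0.47 and 251 long intergenic noncoding RNAs -0.59, but both sets include os genes. With the os genes left out, 679 tested genes of these and other noncoding biotypes had -0.38, while 14719 protein-coding genes had 0.11. IP and Input did not overlap in CPM for 15 of the 73 os genes. IP lay above Input in 4 of them (Hk1os, Med9os, Rbm3os and Uckl1os), against 9.55% of all tested genes. IP lay below Input in 11 (Atad3aos, Cep83os, Chd3os, Fam219aos, Lhx1os, Mccc1os, Pcsk2os1, Rab26os, Slain1os, Tbc1d22bos and Zfp652os), against 10.4% of all tested genes. With the replicate number as a block, a fit that leaves out Input 2, edgeR called 0 os genes. Without adjustment 4 lay higher and 10 lower at a p under 0.05, a count for which the share over all genes was not taken. In that fit 0.54% of all genes were called higher and 0.17% lower. Leaving out Input 2 without a block also gave 0 called os genes. DESeq2 called 4 higher (Ccpg1os, Hk1os, Med9os and Uckl1os) and 6 lower, where 8.14% of all genes were called higher and 5.61% lower. The names in these lists that the naming rule did not take were chosen after their values were seen.

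Mccc1os was lower in IP while its partner was not. Mccc1 encodes the alpha subunit of 3-methylcrotonyl-CoA carboxylase, a mitochondrial enzyme of leucine breakdown. Mccc1os (ENSMUSG00000086392.9, chromosome 3, 35999833 to 36025106, plus strand) starts 845 bases inside Mccc1 (ENSMUSG00000027709.9, chromosome 3, 35959312 to 36000678, minus strand), and 198 of its exon bases overlap those of Mccc1. Mccc1os stood at 2.82, 0.771 and 1.56 CPM in IP 1, IP 3 and IP 4. In Inputs 1 to 4 it stood at 7.58, 14.1, 8.27 and 10.3 CPM. Every IP library lay below every Input library. The log2 fold was -2.55 ± 0.57 (SE; edgeR adjusted p = 0.0328).

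Mccc1 itself had 24.5, 8.61 and 9.79 CPM in IP 1, IP 3 and IP 4 and 7.51, 8.14, 6.09 and 9.26 CPM in the Inputs. The groups overlapped, and the test did not call it (log2 fold 0.89 ± 0.43, SE; edgeR adjusted p = 0.259). Per kilobase of exon (7442 bases for Mccc1os and 10952 for Mccc1), Mccc1os stood at 191% of Mccc1 in Input and at 17.7% in IP. The other strand of Mccc1os also carries Ccdc144b, which had 0 counts in every library. With the replicate number as a block the Mccc1os fold was -2.53 and the call was lost (edgeR adjusted p = 0.162). It was also lost without IP 3 (0.0562), IP 4 (0.117) or any single Input (0.0770 to 0.101), and over all alternatives fitted with edgeR the adjusted p ran from 0.00161 to 0.162.

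Of 13 listed leucine breakdown genes, Mccc1 included, 12 were tested and edgeR called 0, with 0 at an unadjusted p under 0.05 and 0 by DESeq2. Their median log2 fold was 0.27, against 0.06 for all genes. Without IP 1, edgeR called 2 of 13 lower and 0 higher, beside 9.55% lower and 12.5% higher over all genes, and without IP 4 it called 0, with 2 higher at an unadjusted p under 0.05.

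Cep83os was the most abundant os gene and was lower in IP. Cep83 is a protein of the distal appendages that dock the mother centriole to the membrane before a cilium grows. Cep83os (ENSMUSG00000097164.2, chromosome 10, 94671025 to 94688576, minus strand) starts 78 bases from Cep83 (ENSMUSG00000020024.7, chromosome 10, 94688654 to 94790853, plus strand), and its exons overlap no gene of the other strand. It stood at 28.6, 44.6 and 47.4 CPM in IP 1, IP 3 and IP 4 and at 112, 102, 114 and 101 CPM in Inputs 1 to 4. The highest IP library was below the lowest Input library. The log2 fold was -1.42 ± 0.23 (SE; edgeR adjusted p = 0.0142).

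Cep83 had 50.8, 137 and 110 CPM in IP 1, IP 3 and IP 4 and 77.7, 71.0, 75.8 and 92.9 CPM in the Inputs. IP 3 and IP 4 lay above the Inputs and IP 1 below, and Cep83 was not called (log2 fold 0.32 ± 0.30, SE; edgeR adjusted p = 0.587). Per kilobase of exon, Cep83os stood at 150% of Cep83 in Input and at 44.8% in IP. With the replicate number as a block the Cep83os fold was -1.48, with an edgeR adjusted p of 0.0768, and the call was also lost without IP 4 (0.0503) or any single Input (0.0518 to 0.0609). The range over the alternatives fitted with edgeR was 0.000266 to 0.0768.

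Uckl1os was the only os gene that passed in the other direction. Uckl1 resembles the uridine-cytidine kinases of pyrimidine salvage. Uckl1os (ENSMUSG00000010492.10, chromosome 2, 181578480 to 181585170, plus strand) overlaps the start of Uckl1 (ENSMUSG00000089917.7, chromosome 2, 181569149 to 181584892, minus strand). Exons of the other strand cover 28.6% of its exon bases, Uckl1 alone 18.2%, so its counts are uncertain in those stretches. Uckl1os stood at 3.58, 30.1 and 30.1 CPM in IP 1, IP 3 and IP 4, and at 1.25, 0.805, 0.546 and 0.761 CPM in Inputs 1 to 4. IP 3 and IP 4 were nearly equal, and IP 1 lay between them and the Inputs. The log2 fold was 4.65 ± 0.70 (SE; edgeR adjusted p = 0.0129).

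Uckl1 had 16.1, 8.17 and 8.80 CPM in IP 1, IP 3 and IP 4 and 17.4, 19.6, 9.83 and 15.6 CPM in the Inputs, and was not called (log2 fold -0.50 ± 0.39, SE; edgeR adjusted p = 0.496). Per kilobase of exon, Uckl1os stood at 9.89% of Uckl1 in Input and at 354% in IP. With the replicate number as a block the Uckl1os fold was 4.33 and the call was lost (edgeR adjusted p = 0.125), as it was without IP 4 (0.0547) or any single Input (0.0518 to 0.0584). The range over the alternatives fitted with edgeR was 8.83e-07 to 0.125. The ependymal marker sum was also low in IP 1 and high in IP 3 and IP 4, and its part in this result was not tested.

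**Figure D1:**
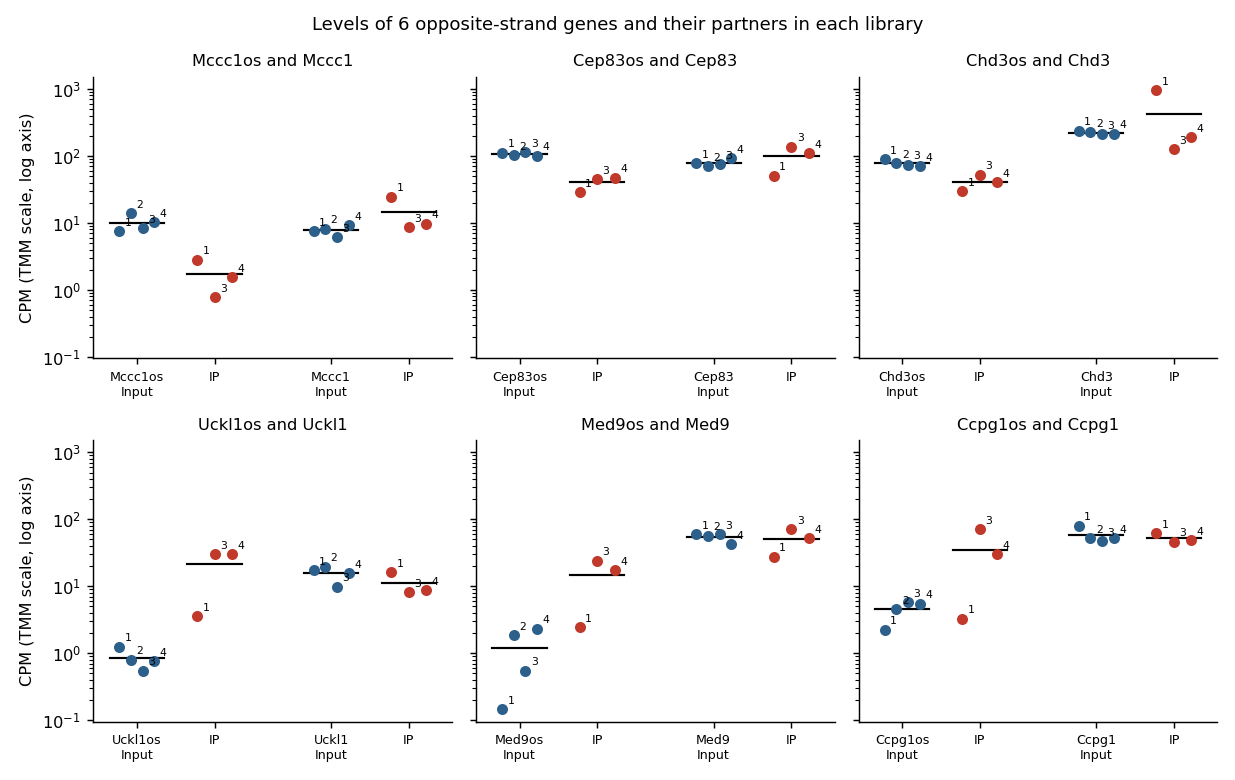
CPM on a log axis for 6 os genes (left of each panel) and their partners (right) in the 4 Input (blue) and 3 IP (red) libraries, each point labelled with its library number and black lines marking group means. Mccc1os, Cep83os and Chd3os lie lower in every IP library than in any Input library, and Uckl1os and Med9os higher, while the partners' groups overlap.

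Other os genes had large folds that missed the threshold. Med9os (ENSMUSG00000085260.7, chromosome 11, 59946889 to 59948142, minus strand) starts 64 bases from Med9, a subunit of the Mediator complex, and overlaps no exon of the other strand. It stood at 2.44, 24.1 and 17.2 CPM in IP 1, IP 3 and IP 4 and at 0.147, 1.86, 0.546 and 2.31 CPM in Inputs 1 to 4. IP 1 lay just above the highest Input. The log2 fold was 3.58 ± 0.95 (SE; edgeR adjusted p = 0.0571), beside -0.14 ± 0.31 (SE) for Med9 (edgeR adjusted p = 0.848).

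Ccpg1os (ENSMUSG00000086158.2, chromosome 9, 72979722 to 72985382, minus strand) is protein coding and starts 47 bases from Ccpg1, a receptor for autophagy of the endoplasmic reticulum, with no exon overlap. It stood at 3.28, 70.8 and 30.2 CPM in IP 1, IP 3 and IP 4 and at 2.26, 4.56, 5.73 and 5.48 CPM in Inputs 1 to 4. IP 1 lay within the Input range and the other IP libraries above it. The log2 fold was 2.95 ± 0.80 (SE; edgeR adjusted p = 0.0638), beside -0.14 ± 0.25 (SE) for Ccpg1 (edgeR adjusted p = 0.804).

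Chd3os (ENSMUSG00000043419.11, chromosome 11, 69340461 to 69342641, plus strand) was matched through a RefSeq synonym of Rnf227, a ring finger gene annotated as coding in GENCODE, and converges with Chd3, a chromatin remodeller, without overlap. It stood at 29.9, 52.3 and 40.8 CPM in IP 1, IP 3 and IP 4 and at 89.4, 78.1, 73.8 and 70.2 CPM in the Inputs, with no overlap of the groups. The log2 fold was -0.93 ± 0.24 (SE; edgeR adjusted p = 0.0518). Chd3 had 969 CPM in IP 1 against 126 and 190 in IP 3 and IP 4 and 210 to 237 in the Inputs, so 1 library set its log2 fold of 0.95, which was -0.49 without it.

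Hk1os, inside the hexokinase gene Hk1, had 2.02, 4.93 and 3.36 CPM in IP against 0.0671 to 1.06 CPM in Input, and its log2 fold was 2.98 ± 1.04 (SE; edgeR adjusted p = 0.124). Fancd2os, a coding gene that meets the DNA repair gene Fancd2 end to end, had 0.20, 6.87 and 3.02 CPM in IP and 0.0671 to 2.24 CPM in Input. Its groups overlapped (log2 fold 2.37, edgeR adjusted p = 0.369).

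Among the most negative folds, Tbc1d22bos had 2 counts over the 3 IP libraries against 117 over the 4 Inputs. The pooled ratio was 0.019, with a 95% exact interval of 0.00227 to 0.0701 that covers counting error only. Its Inputs ran from 0.0447 to 1.86 CPM, so they differed widely among themselves. Dnm3os, a host transcript of microRNAs inside the dynamin gene Dnm3, stood at 0.0220 to 0.100 CPM in IP and 0.0894 to 1.28 CPM in Input (log2 fold -3.38, edgeR adjusted p = 0.195). Slain1os, inside the microtubule-tip gene Slain1, stood at 1.68, 0.0220 and 0.722 CPM in IP against 3.99 to 10.05 CPM in Input, with no overlap and a log2 fold of -3.06 (edgeR adjusted p = 0.113). Sorbs2os, inside the adaptor gene Sorbs2, and Rab11fip4os1 had log2 folds of -2.58 and -2.56 with overlapping groups (edgeR adjusted p = 0.234 and 0.355).

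Several abundant os genes differed little. Wdr83os, a coding gene whose product belongs to a chaperone complex for membrane proteins in the endoplasmic reticulum, stood at 23.4, 50.1 and 46.9 CPM in IP and 36.7 to 61.4 CPM in Input (log2 fold -0.15 ± 0.31, SE). The groups overlapped, and 52.3% of its exon bases overlap exons of Wdr83. Brip1os stood at 12.8, 14.7 and 11.9 CPM in IP and 5.52 to 22.1 CPM in Input (log2 fold -0.03 ± 0.44, SE), and 20.2% of its exon bases overlap genes of the other strand that are not its partner. Slc7a6os, the mouse counterpart of a factor that helps to import RNA polymerase II into the nucleus, had a log2 fold of 0.40 ± 0.32 (SE), Cebpzos one of -0.16 ± 0.43 (SE) and Fam120aos one of 0.63 ± 0.48 (SE). Fam219aos stood at 28.5, 27.0 and 40.0 CPM in IP and 40.3 to 54.2 CPM in Input, just below and without overlap. Its log2 fold was -0.62 ± 0.24 (SE; edgeR adjusted p = 0.166), close to that of Fam219a (-0.57 ± 0.22), and 66.2% of its exon bases overlap exons of Fam219a.

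Of the 139, 19 have a partner on a list of developmental transcription factors. Of these 10 were tested and edgeR called 0, with 0 at an unadjusted p under 0.05 and 0 by DESeq2, and their median log2 fold was 0.13 against -0.50 for the other 63. Dlx6os1, known from forebrain interneuron development, stood at 14.9, 6.65 and 11.7 CPM in IP and 11.7 to 28.4 CPM in Input, with overlapping groups (log2 fold -0.91 ± 0.43, SE; edgeR adjusted p = 0.237). Emx2os, which overlaps the start of the cortical homeobox gene Emx2, stood at 3.02, 13.4 and 5.52 CPM in IP and 8.82 to 21.1 CPM in Input (log2 fold -0.99 ± 0.56, SE; edgeR adjusted p = 0.335). Six3os1 had 5.20 to 17.5 CPM in IP and 5.01 to 13.8 CPM in Input. Of 3 symbols ending in ot, a class that names overlapping transcripts, the noncoding RNAs Kcnq1ot1 and Sox2ot were lower, with log2 folds of -2.54 and -1.01 (edgeR adjusted p = 0.0105 and 0.0356), beside 2.16% of all tested genes called lower, and Leprot, a coding gene, was not called (-0.18, 0.851). Of symbols ending in as, the antisense RNAs Dlx1as and Znrd1as were not called, with log2 folds of -1.49 and 0.94 (edgeR adjusted p = 0.110 and 0.473).

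The os genes were also described by their position in the pair, and differences between these classes were not tested. The median log2 fold was -0.10 for 12 divergent os genes, -0.32 for 24 that overlap starts, -0.53 for 11 that overlap end to end, -0.93 for 3 convergent ones and -1.40 for 18 inside their partner. The 1 tested os gene that encloses its partner had 0.21 and the 4 without a match a median of 0.04. The class inside the partner was also the least abundant, with a median level of 1.003 CPM against 2.18 for the divergent class. The 8 tested coding os genes had a median of 0.12 and the 61 with a noncoding biotype -0.53. The 45 with exon overlap had -0.53 and the 24 without it -0.33.

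**Figure D2:**
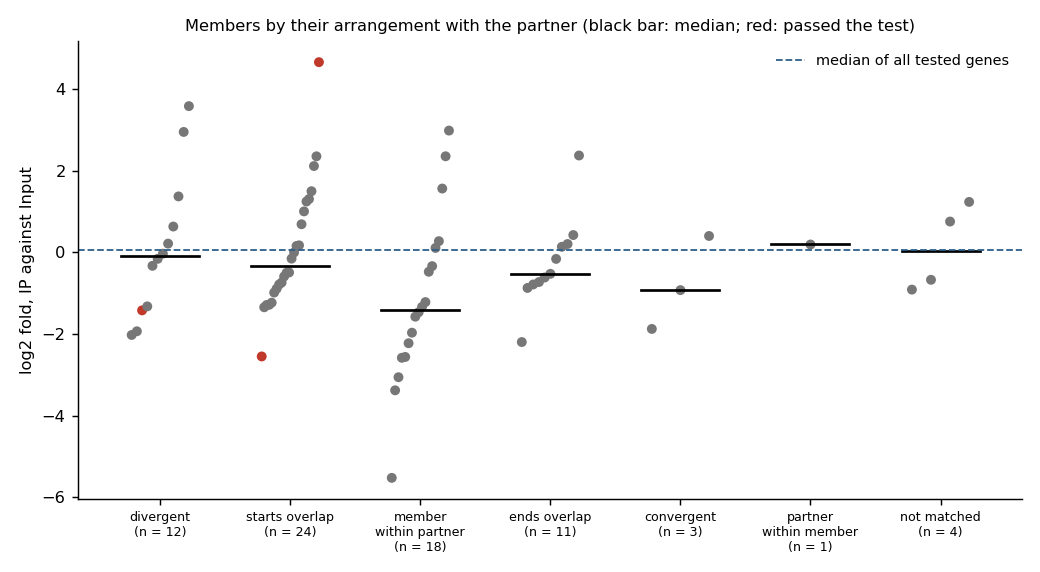
Log2 fold of IP against Input for the 73 tested os genes by their arrangement with the partner, with black bars for medians, red points for genes that passed the test and a dashed line for the median of all tested genes (0.06). The 18 os genes inside their partner have a median of -1.40 and the 12 divergent ones -0.10, with wide spread and overlap between these classes.

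Partners had a median log2 fold near that of all genes (0.12 against 0.06). Of the 115 partners tested, 3 were called higher and 2 lower, where 3.64% and 2.16% of all tested genes were called. Without adjustment, 16 partners lay above and 12 below at a p under 0.05, beside 2319 and 1633 of all 17375 tested genes. Whether os genes and partners differ in how often they changed was not tested. The higher ones were Ccdc34, a coiled-coil protein gene (log2 fold 2.72), Slc6a19, a neutral amino acid transporter (5.03), and Zfhx2, a zinc finger homeobox gene (1.21), with edgeR adjusted p of 0.0285, 0.0417 and 0.0469. The lower ones were Rsf1, a chromatin remodelling factor (-1.20), and St8sia3, a sialyltransferase of neurons (-0.87). None of the 3 os genes that passed has a partner among these 5.

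Of the os genes of these 5 partners, Zfhx2os alone had enough counts to be tested. Ccdc34os had 0 counts in the 3 IP libraries and 16 in all Inputs together, while Ccdc34 stood at 28.9, 230 and 147 CPM in IP and 14.8 to 24.3 CPM in Input. Slc6a19os had 12 counts in all, Rsf1os2 11 and St8sia3os 58. Rsf1os1 had 132 counts, of which 121 were in IP 1. Zfhx2os stood at 6.67, 0 and 0 CPM in IP 1, IP 3 and IP 4 and at 1.42, 1.07, 4.15 and 1.08 CPM in the Inputs. The IP libraries fell on both sides of the Inputs, and the log2 fold was 0.20 ± 1.76 (SE; edgeR adjusted p = 0.961). Zfhx2 stood at 139, 56.0 and 88.8 CPM in IP and 33.3 to 52.5 CPM in Input, and 73.1% of the exon bases of Zfhx2os overlap exons of Zfhx2.

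Folds of os gene and partner had the same sign in 44 of 73 pairs, with a Pearson r of 0.17 and a Spearman rho of 0.24. These points share the same 7 libraries and their depth, so they are a description. Of the 73 pairs, 8 have a coding os gene. The 516 other annotated pairs of a noncoding and a coding gene on opposite strands had the same sign in 268, with an r of 0.13 and a rho of 0.13.

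**Figure D3:**
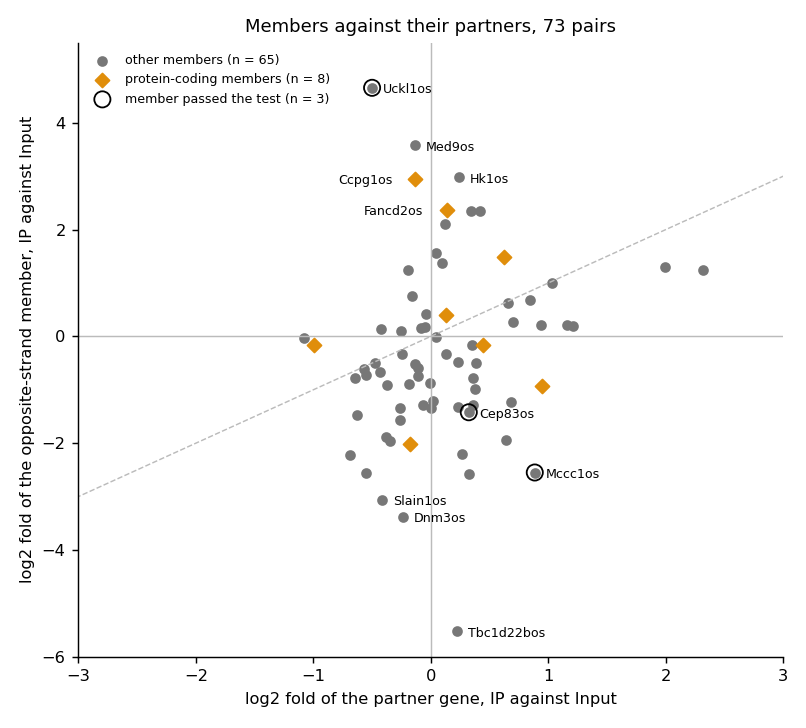
Log2 fold (IP against Input) of each os gene on the vertical axis against that of its partner on the horizontal axis, for 73 pairs, with diamonds for coding os genes, rings for the 3 that passed the test and a dashed line of equal folds. Most partners lie between -1 and 1 while os genes run from -5.52 to 4.65, and the 3 ringed genes sit far from the dashed line.

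Within a library the ratio of os gene to partner is free of the scaling between libraries. It was taken as the difference of log2 CPM (prior count 2), and IP and Input were compared with an exact two-sided permutation test over the 35 ways to draw 3 of 7 libraries, whose smallest possible p of 0.0571 cannot reach 0.05. The median difference over 73 pairs was -0.55, with 49 negative. The 516 other pairs, all of a noncoding and a coding gene, had -0.41, with 325 negative. The 65 pairs whose os gene is not annotated as coding had -0.71, with 46 negative. In 2 pairs every IP ratio was above every Input ratio, against 3.49% of the other pairs. In 8 pairs every IP ratio was below, against 10.9%. These 2 and 8 pairs are all among the 65, of which they make up 3.08% and 12.3%. Among the 24 pairs without exon overlap the median was -0.62, with 1 pair above and 3 below.

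The Mccc1os to Mccc1 log2 ratio was 0.01, 0.79, 0.44 and 0.16 in Inputs 1 to 4 but -3.10 in IP 1, -3.41 in IP 3 and -2.62 in IP 4, a difference of -3.39 (exact permutation p = 0.0571). The 3 IP libraries lay close together here, IP 1 included. The Cep83os to Cep83 ratio was -0.83, -1.62 and -1.21 in IP and 0.53, 0.52, 0.60 and 0.13 in Input, a difference of -1.67 (exact permutation p = 0.0571).

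The Uckl1os to Uckl1 ratio was -2.16, 1.88 and 1.77 in IP and -3.75, -4.53, -4.06 and -4.28 in Input, a difference of 4.65 (exact permutation p = 0.0571). IP 1 lay between the other IP libraries and the Inputs, nearer to the Inputs. For Med9os to Med9 the ratio was -3.47, -1.55 and -1.60 in IP and -8.29, -4.91, -6.66 and -4.19 in Input, a difference of 3.81 (exact permutation p = 0.0571).

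The remaining 6 separated pairs had lower ratios in IP. Their differences were -3.86 for Sorbs2os, -3.45 for Slain1os, -3.23 for Tbc1d22bos, -3.05 for Atad3aos, -1.93 for Rab26os and -1.04 for Pcsk2os1, each with the same smallest exact permutation p of 0.0571. The 3 IP ratios spanned -0.77 to -5.04 for Atad3aos and -6.18 to -10.76 for Sorbs2os, while those of Pcsk2os1 spanned only -6.33 to -6.90.

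**Figure D4:**
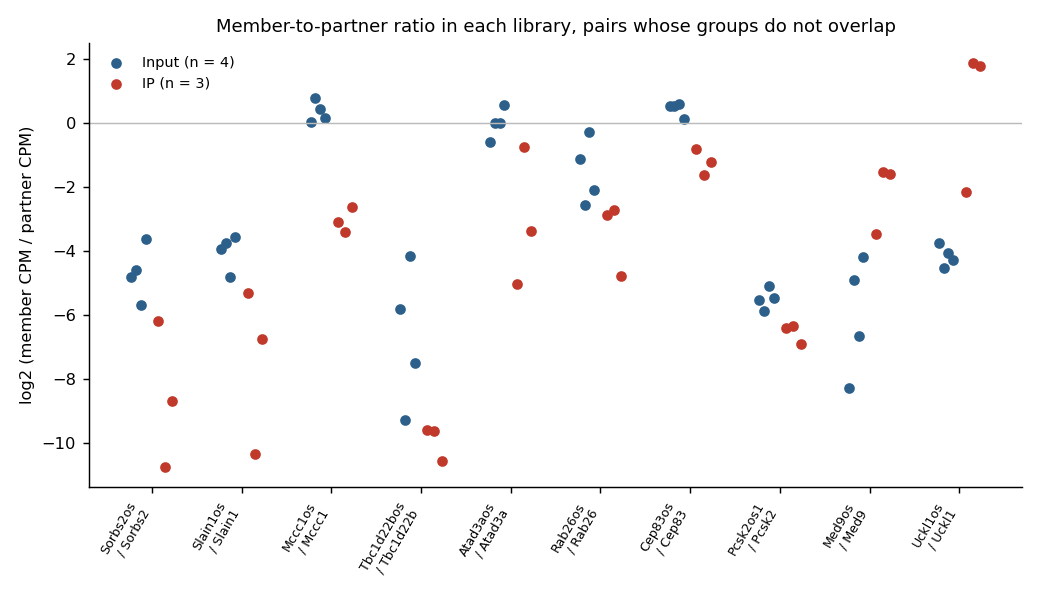
Log2 ratio of os gene to partner in each Input (blue, n = 4) and IP (red, n = 3) library for the 10 pairs whose groups do not overlap, ordered by the difference of group means. The Mccc1os and Cep83os pairs move from just above 0 in Input to between -3.41 and -0.83 in IP with little spread, and the Uckl1os and Med9os pairs move upwards.

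IP and Input libraries of the same number share a sequencing lane. Against the Input of its number, the median log2 ratio of the 73 tested os genes stood at -0.20 for IP 1, -1.36 for IP 3 and -0.84 for IP 4, and 38, 45 and 50 of the 73 lay below 0. Partners had medians of 0.16, -0.11 and 0.08. By this median the os genes were nearest to Input in IP 1, the library with the lowest ependymal marker sum. By summed level over all 139 they were furthest from it there. The sums were 307 CPM in IP 1 against 507 in Input 1, 526 against 564 for number 3 and 423 against 536 for number 4. IP 1 also had 18.4% of its reads on no gene, against 8.85% in IP 3, 8.15% in IP 4 and 15.2% to 18.2% in the Inputs. The part of the marker sums or of the reads on no gene in the os values was not tested. Without IP 1, edgeR called 7 os genes higher (Ccpg1os, Fam120aos, Hk1os, Med9os, Sp3os, Toporsos and Uckl1os) and 7 lower (Cep83os, Chd3os, Mccc1os, Rab26os, Slain1os, Sorbs2os and Zfhx2os), where 12.5% of all tested genes were called higher and 9.55% lower. Mccc1os, Cep83os and Uckl1os passed with and without IP 1.

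Trp73, the partner in the naming of Trp73os, is a transcription factor of the p53 family that directs multiciliation. It stood at 7.41, 32.6 and 36.0 CPM in IP 1, IP 3 and IP 4 and at 1.18, 2.62, 0.464 and 0.639 CPM in Inputs 1 to 4, with every IP above every Input. Its log2 fold was 4.36 ± 0.72 (SE; edgeR adjusted p = 0.0147). Of 20 listed multiciliation regulators, Trp73 included, 19 were found and 17 were tested. EdgeR called 5 higher (Ccdc78, Foxj1, Myb, Rfx2 and Trp73) and 0 lower, beside 3.64% higher and 2.16% lower over all tested genes. At an unadjusted p under 0.05, 0 were lower, and DESeq2 called 0 lower. The median log2 fold was 0.35. With the replicate number as a block 0 were called, beside 0.54% higher and 0.17% lower over all genes, and 5 were higher at an unadjusted p under 0.05. Rfx2 belongs to the family that binds patterns of the X-box type, and no binding was measured here.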

How the data were processed

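RNA of 3 IP and 4 Input libraries was measured by sequencing. The authors deposited 1 table per library of whole-number read counts per gene symbol and did not normalise them. Reads were aligned with STAR 2.0.0e to mm10 and counted with HTSeq, per the submitters' processing notes. The settings, annotation and strand handling were not given in the sources used here, so reads of overlapping opposite-strand genes cannot be told apart. Of 15 genes lying wholly within exons of the other strand 53.3% had 0 counts in every library, against 19.4% of 18445 genes with no such overlap, which does not settle the strand setting. Lines that name no gene (40.1% to 52.1% per library) stayed out of library sizes and tests.

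Genes were filtered with filterByExpr (minimum count 10, minimum total 15) and tested with edgeR 4.0.16 in R 4.3.3 (TMM scaling, robust quasi-likelihood fit, group as the only term) over all 7 libraries. P-values were adjusted with Benjamini-Hochberg over 17375 genes. Standard errors are the absolute log2 fold over the root of the F statistic, and CPM are on the TMM scale. Exact intervals and the 3-count limit cover counting error only. Symbols were matched to GENCODE M21 (130 by symbol, 3 by a RefSeq synonym, 6 to none or to several). Alternatives were a replicate block, DESeq2 1.42.0, total counts as the scaling, other filters and prior counts, pairs without exon overlap, and each library left out.

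The main comparisons use no pairing. The block alternative takes replicate numbers as pairs, since per the labels an IP and the Input of its number share a lane (lanes 4, 2 and 3 for numbers 1, 3 and 4). It leaves out Input 2, which has no IP of its number. Its lost calls therefore cannot be put down to the pairing alone. After subtracting group means, same-numbered libraries correlated across genes at 0.032, 0.043 and 0.026, in each case more than that IP did with another Input.

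The os genes, partners and lists were chosen with earlier results of these data known. The text names Mccc1os and Trp73 with their partners, called os genes, os genes of called partners, the 10 most abundant, and the 5 largest folds and pair differences in each direction. Other names were chosen after their values were seen.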

Additional observations from a re-analysis of the deposited data

Results flagged for a closer look

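Among 52 named os genes and partners, 8 had 1 Input library far from the other 3. The rule flags about 1 group in 20 where values are normally distributed. A few counts in 1 library with 0 in the others also meet it, so the 8 cannot be set against that rate. Ccdc34os stood at 0.368 CPM in Input 1 and at most 0.0246 elsewhere, and Rsf1os1 at 0.245 CPM in Input 1 and at most 0.0273 elsewhere. Slc6a19os had 0.0273 CPM in Input 3 and 0 in the others. These 3 rest on a few counts. Fancd2os stood at 2.24 CPM in Input 4 and at most 0.218 in the others, and Zfhx2os at 4.15 CPM in Input 3 and at most 1.42. Wdr83os stood at 61.4 CPM in Input 4, next to 40.8. Of the partners, Ccpg1 stood at 80.3 CPM in Input 1, next to 52.0, and St8sia3 at 505 CPM in Input 2, below 608 and 622 at most in the others.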

How the results depend on the processing

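With the replicate number as a block, edgeR called 92 genes higher and 29 lower (0.54% and 0.17% of 17042), 0 and 0 os genes (4 and 10 at an unadjusted p under 0.05) and 0 and 0 partners (10 and 8). DESeq2 called 1396 and 962 genes (8.14% and 5.61%), 4 and 6 os genes and 11 and 5 partners. At a mean CPM of at least 1, 3 os genes were lower. Leaving out 1 library gave 4 to 2259 genes higher and 16 to 1724 lower, 0 to 7 os genes in each direction, and 0 to 16 partners higher and 0 to 13 lower. The 0 counts of os genes came without IP 4 or any single Input, where 4 to 5 were higher and 4 to 10 lower at an unadjusted p under 0.05. The most calls came without IP 1.

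The median pair ratio was -0.83 with the replicate block, -0.74 at a prior count of 0.5, -0.62 over pairs without exon overlap, and ran from -0.83 to -0.34 with 1 library left out. Pairs with every IP above and below numbered 7 and 16 within numbers (replicate block), 1 and 3 without exon overlap, and 2 to 11 and 8 to 21 with 1 library left out.

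Small folds changed sign, and the cause was not tested. With 1 library left out, log2 folds ran for Brip1os from -0.30 to 0.31 (0.31 without Input 3, 0.034 without IP 4), for Wdr83os from -0.35 to 0.12 (0.12 without IP 1, 0.035 without Input 4), for Zfhx2os from -9.39 to 0.89, and among partners for Ccpg1 from -0.29 to 0.054 (without Input 1), for Chd3 from -0.49 (without IP 1) to 1.36, for Emx2 from -0.15 (without IP 3) to 1.12, for Fancd2 from -0.76 (without IP 1) to 0.50, for Hk1 from -0.017 (without IP 1) to 0.44, for Med9 from -0.47 to 0.15 (without IP 1) and for Slc7a6 from -0.19 (without IP 4) to 0.44. With the replicate block the folds were 0.15 for Brip1os, -0.25 for Fancd2 and -0.015 for Slc7a6, and with total counts as the scaling 0.017 for Brip1os. Zfhx2os gave -5.40 with the block and -9.39 without IP 1 (edgeR adjusted p = 0.00561), fitted values that depend on the prior count. IP 3 and IP 4 hold 0 counts of it, which is at least 62.2-fold lower than Input against a floor of 3 counts over those libraries. Of 789 alternatives for 68 single results, 695 kept direction and side of the threshold. A count of 0 allows levels of up to 0.0575 to 0.0806 CPM at these depths, before TMM scaling. Of the 73 tested os genes, 24 had a mean below 1 CPM.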
